A study of Homo sapiens with 10 samples.

Results

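Binding of RARα, a retinoic acid receptor, and of the coactivator MAML3 was examined at 8 genes that serve as regulators or markers of mesenchymal identity, PRRX1, RUNX1, RUNX2, FOSL2, YAP1, SNAI2, MEOX2 and CD44. Each gene was taken with about 100 kb on each side on the hg19 build, which gave 8 windows of 2.53 Mb in all, and every listed peak that touched a window was counted. The windows held 8 of the 26482 peaks in the 8 lists, and 3 of the 8 genes had any peak. The data came from the established neuroblastoma line SK-N-SH, of human origin, by chromatin immunoprecipitation and sequencing (ChIP-seq). The cells were kept in charcoal-stripped serum, which is low in retinoids, for 24 hours and were then given RA, which is retinoic acid at 1 µM, or vehicle alone, which the labels call untreated (UT). The labels give 2 libraries for each antibody and treatment, so that there were 4 groups of 2. They do not say whether the 2 libraries of a group came from separate cultures. The samples measured occupancy only, so whether these genes were expressed in the cells was not examined.

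Neuroblastoma cells are known to occur in an adrenergic state, close to sympathetic neurons, and in a mesenchymal state, close to neural crest and stroma. PRRX1, RUNX1, RUNX2, FOSL2, SNAI2 and MEOX2 are transcription factors and YAP1 is a coactivator, several of them known from the regulatory circuit of the mesenchymal state, and CD44 is a cell surface marker of it. SK-N-SH is known to be a mixed line from which cells of both states have been cloned. MAML3 is a mastermind-like protein, a family best known for joining the Notch intracellular domain on its DNA-binding partner RBPJ. RARα binds DNA together with a retinoid X receptor and changes its cofactors when retinoic acid is bound.

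The untreated MAML3 lists held 2222 and 6759 peaks and the RA lists 7532 and 6230. The RARα lists held 1321 and 251 peaks in untreated cells and 1103 and 1064 after RA. Within each antibody the lists differed in length by up to several times, and no read depth was at hand to set beside these lengths. The file tags of both untreated MAML3 lists share a library number and index, and the list of 251 peaks carries a tag for merged data. No label explains either, so the untreated MAML3 lists may be repeat runs of 1 library. The absence of a listed peak does not show that a position was free of either protein.

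MAML3 peaks in the windows were few, and RARα peaks were not listed there at all. MAML3 UT replicate 1 held 1 peak in the 8 windows, UT replicate 2 held 1, RA replicate 1 held 4 and RA replicate 2 held 2. All 4 RARα lists held 0. Where peaks from the 4 lists of an antibody shared at least 1 bp they were joined into a single site. The windows held 5 of the 10251 MAML3 sites and 0 of the 2120 RARα sites. As many sites per Mb as over the whole listed range would have put 8.83 MAML3 and 1.83 RARα sites in this length. A MAML3 site lay in 3 of the 8 windows (37.5%). Of all consecutive stretches as long as the mean window (316 kb) that tile the listed range, 43.1% held at least 1 MAML3 site and 15.2% at least 1 RARα site. The share of windows with MAML3 was thus near the background and is no result about these genes. For RARα the count stood at 0 of 8 windows beside its background of 15.2%. With so low a background, 8 windows are too few to show a depletion, so this 0 is no result about these genes either.

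**Figure D1:**
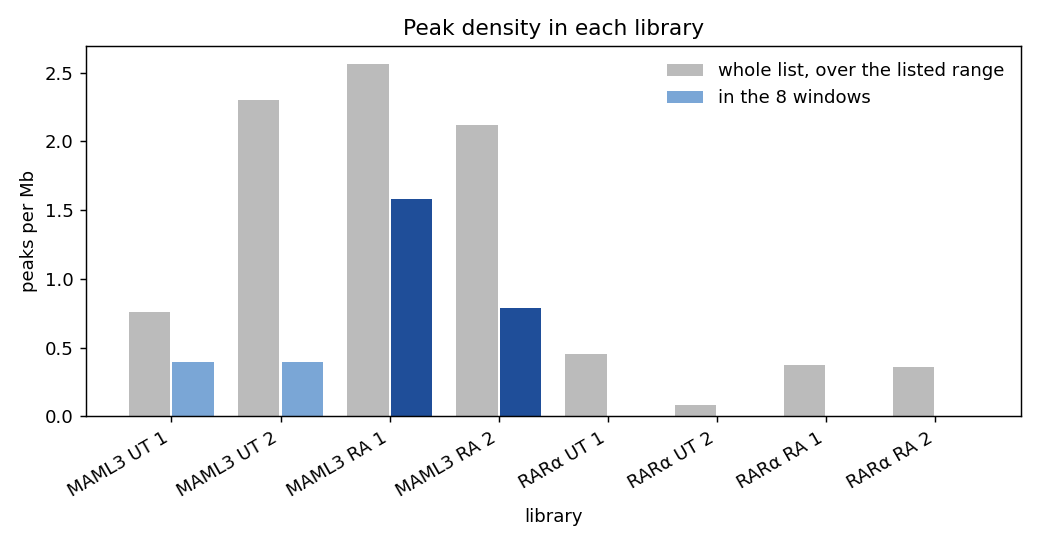
Peaks per Mb in each of the 8 libraries (1 pair of bars per library), in grey over the whole range in which any list had peaks and in colour inside the 8 windows. The coloured bars lie below the grey ones in all 4 MAML3 libraries (0.395 against 0.757, 0.395 against 2.30, 1.58 against 2.57 and 0.791 against 2.12 peaks per Mb), and the 4 RARα libraries have 0 peaks in the windows.

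FOSL2, an AP-1 subunit of the FOS family, had the one site of the windows that all 4 MAML3 lists held. It lay on chromosome 2 at 28735932 to 28736303. The deposited number of the peak, a score given by the authors that can only be ranked within a list, was 103 in UT replicate 1 and 155 in UT replicate 2. It was 114 in RA replicate 1 and 129 in RA replicate 2. These values ranked the peak 1446th of 2222, 3435th of 6759, 4756th of 7532 and 3405th of 6230, which correspond to percentiles of 34.9, 49.2, 36.9 and 45.4. The untreated percentiles lay on both sides of the RA ones, so the treatments overlapped in rank. Its mean percentile of 41.6 was below the median of 74.4 over all 1724 MAML3 sites present in all 4 lists. Such sites made up 16.8% of all MAML3 sites, and a site of this kind was found in 9.12% of all stretches as long as the FOSL2 window, 35.7% of which held a MAML3 site of any kind.

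The site lay at the outer end of the window, far from the gene. It began 95.9 kb past the end of the gene stretch, which is the window without its 100 kb flanks, and ended 3.70 kb before the window's edge. FOSL2 is on the plus strand, so the site was on its downstream side. In the order of RefSeq protein-coding genes PLB1, a phospholipase gene, follows FOSL2 on that side. An annotation of the hg19 build was not used here, so whether the site lies within PLB1 was not examined. No listed peak of either antibody lay in the FOSL2 gene stretch or on its upstream side within the window.

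YAP1, the transcriptional coactivator of the Hippo pathway, had 2 MAML3 sites, both in a single list. The first lay on chromosome 11 at 102060867 to 102061166, inside the gene stretch, and the second at 102159517 to 102159766, 49.5 kb past its end on the downstream side. RA replicate 1 listed both, with deposited numbers of 90.4 and 109 (percentiles 21.4 and 34.3). The median percentile was 19.9 over all 3812 MAML3 sites in 1 list. RA replicate 2 and both untreated libraries listed 0 peaks in the window. The treatments overlapped here, since 1 RA library was at 0 like the untreated ones. Peaks found in RA replicate 1 alone were common, 1557 of the 10251 MAML3 sites (15.2%), and 44.1% of all stretches as long as the YAP1 window held a MAML3 site.

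CD44, the hyaluronan receptor, likewise had 2 MAML3 sites, each in a different RA library. RA replicate 1 listed a peak on chromosome 11 at 35182617 to 35182816 with a deposited number of 71.3, close to the lowest in that list (percentile 1.36). RA replicate 2 listed a peak at 35245063 to 35245412 with a number of 100 (percentile 29.4). Both positions were inside the gene stretch, 22.6 and 85.1 kb from its upstream end. By count, CD44 was the 1 window of 8 in which both RA libraries (1 and 1 peaks) were above both untreated libraries (0 and 0), and 6.36% of all stretches as long as its window had such a pattern. A MAML3 site of any kind was found in 42% of such stretches, and 8.66% of all MAML3 sites were in RA replicate 2 alone. The 2 peaks did not overlap, so neither site was held by both RA libraries and neither was called gained.

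**Figure D2:**
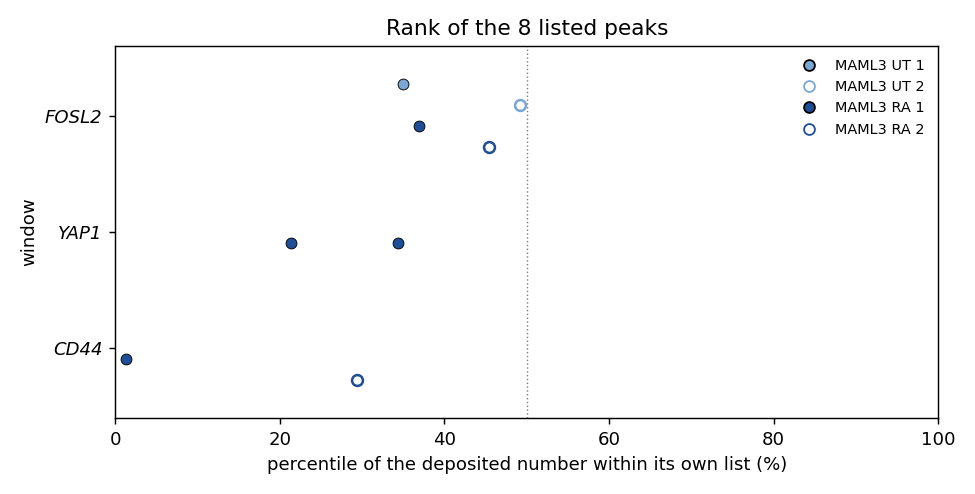
Percentile of the authors' deposited number within its own list (x axis, 100 being the highest peak of the list) for the 8 peaks listed in the windows, by gene (y axis). Points are single peaks, coloured by treatment, filled for replicate 1 and open for replicate 2. All 8 points lie below the dotted line at 50, from 1.36 for a CD44 peak of RA replicate 1 to 49.2 for the FOSL2 peak of UT replicate 2.

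No site in the windows met the rule for a change with RA. Gained means listed in RA replicates 1 and 2 but in no untreated list, and lost means the reverse. MAML3 gained 0 and lost 0 of the 5 sites, against 9.37% of all MAML3 sites gained and 0.683% lost. RARα had no site to compare, against 5.42% gained and 0.472% lost over all its sites. The 4 sites that were each in 1 list all came from RA libraries, 3 from replicate 1 and 1 from replicate 2, and 37.2% of all MAML3 sites were in 1 list. Sites listed in RA libraries only, in any number of them, made up 33.2% of all MAML3 sites. The mean number of MAML3 peaks in the windows was 1 ± 0 (SD, n = 2) in untreated cells and 3 ± 1.41 (SD, n = 2) after RA, and the exact two-sided permutation p was 0.333, the smallest that 2 libraries against 2 can give. This difference of 2 peaks was 0 among the 50% highest peaks of each list and turned to -0.5 with lists of equal length. As a share of the list, the windows held 0.0450% (exact 95% interval 0.00114 to 0.250) and 0.0148% (0.000375 to 0.0824) of the untreated peaks. They held 0.0531% (0.0145 to 0.136) and 0.0321% (0.00389 to 0.116) of the RA peaks. These intervals cover counting error only. By this share UT replicate 1 lay between the RA libraries, and the treatments overlapped (exact two-sided permutation p = 0.667). The untreated SD and both tests take the untreated MAML3 lists as 2 libraries, which does not hold if they are repeat runs of 1.

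Overlap of MAML3 and RARα could not be examined in the windows, which held 0 RARα sites. That none of the 5 MAML3 sites carried a RARα peak follows from this and is no further result. Over the whole lists, 17.0% of all MAML3 sites lay on a RARα site and 84.4% of all RARα sites on a MAML3 site.

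PRRX1, RUNX1, RUNX2, SNAI2 and MEOX2 had no peak of either antibody in any of the 8 lists. PRRX1 is a paired-related homeobox factor of mesenchyme, RUNX1 and RUNX2 are Runt-domain factors best known from blood and bone, SNAI2 (Slug) is a repressor known from neural crest and epithelial to mesenchymal transition, and MEOX2 is a mesenchyme homeobox factor. At least 1 MAML3 site was found in 40.0% of all stretches as long as the PRRX1 and MEOX2 windows, which are equally long. The share was 52.6% at the length of the RUNX1 window, 50.5% at that of RUNX2 and 33.7% at that of SNAI2. An empty window was thus common at each length.

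The empty windows differed in how far the nearest MAML3 site was. RUNX1 lay in the longest site-free stretch, 3.41 Mb, whose nearest border was a low peak of UT replicate 2 alone (percentile 4.29) 763 kb from the window. Stretches without a MAML3 site at least that long made up 14.4% of the length between MAML3 sites. RUNX2 lay in a stretch of 2.16 Mb, bordered 300 kb from the window by a peak of RA replicate 2 alone (percentile 21.4). PRRX1 lay in a stretch of 1.92 Mb, SNAI2 in one of 1.44 Mb and MEOX2 in one of 1.10 Mb. Stretches at least as long as these 4 made up 25.2, 28.4, 37.3 and 46.0% of the length, in the order RUNX2, PRRX1, SNAI2 and MEOX2. Only empty windows are described here, so each had to lie in a stretch longer than itself. Among empty windows alone all these shares would be higher, so they are no result about these genes.

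Few peak numbers were skipped around the windows in the MAML3 lists. The peak names in every list carry numbers that rise with position, with some numbers skipped. Whether a skipped number stands for a called peak is not stated in the labels. Between the listed peaks on either side of a window, no number was skipped in 31 of the 32 pairs of a window and a MAML3 list. The exception was YAP1 in UT replicate 2, with 1 skipped number somewhere in a stretch that reaches well past the window. For RARα no number was skipped in 22 of 32 pairs. The other 10 pairs had 1 to 6 skipped numbers. Over the whole lists, 2.86 to 10.7% of the numbers were skipped for MAML3 and 13.9 to 35.1% for RARα. More numbers were thus skipped for RARα than for MAML3 over the whole lists as well. The share of all intervals between listed peaks with a skipped number was not computed, so the 10 pairs are no result about these windows. CD44 had 6 in UT replicate 2 and 1 in UT replicate 1, and SNAI2 had 5 in UT replicate 1, 3 in UT replicate 2 and 5 in RA replicate 2. These numbers cannot be placed within their stretches, which span at least 9.47 Mb around SNAI2 and at least 2.04 Mb around CD44. The highest share of skipped numbers, 35.1%, was that of RARα UT replicate 2.

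To see what lay next to the genes, the windows were widened by 1 Mb on each side, to 18.53 Mb, a step chosen after the windows had been seen to be nearly empty. The widened windows hold many other genes, so their sites are described by distance only. They held 49 MAML3 sites, 2.64 per Mb against 3.49 over the listed range. Of these, 13 were in all 4 lists (26.5%, or 16.7% with 500 kb on each side, against 16.8% of all MAML3 sites). MAML3 UT replicates 1 and 2 had 15 and 32 peaks there, and RA replicates 1 and 2 had 36 and 30. As a share of each list that was 6.75 and 4.73 per 1000 peaks in the untreated libraries and 4.78 and 4.82 after RA, and the treatments overlapped. With 500 kb on each side they did not overlap. There the untreated libraries had 3 and 8 peaks (1.35 and 1.18 per 1000) and the RA libraries 14 and 12 (1.86 and 1.93 per 1000), with an exact two-sided permutation p of 0.333, the smallest the design allows, for counts and for shares. The order of the treatments by share thus depended on how far the windows were widened. How often the treatments separate in this way over equal lengths elsewhere was not computed, so the separation is no result about these genes. Of the 49 sites, FOSL2 had 15, MEOX2 11, CD44 10, SNAI2 6, RUNX2 3, YAP1 2, and PRRX1 and RUNX1 1 each.

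RA gained 3 of the 49 MAML3 sites (6.12%, against 9.37% of all sites) and lost 0, against 0.683% of all sites. All 3 were within 500 kb of a window, where they made up 16.7% of 18 sites, so that the share was above or below the background according to the width. The gained site nearest to a window was on chromosome 8 at 49436326 to 49436758, 293 kb from the SNAI2 window (mean percentile 34.4). The next was on chromosome 2 at 28154132 to 28154581, 355 kb on the upstream side of the FOSL2 window (percentile 63.2), and the last on chromosome 1 at 170045400 to 170045749, 484 kb on the upstream side of the PRRX1 window (percentile 21.0). The last was also the only MAML3 site of the widened PRRX1 window. The gained site near SNAI2 belonged to 5 MAML3 sites on that side, from 235 to 438 kb away. One of them, at 49490803 to 49491250, was in all 4 lists, and its neighbour at 49494876 to 49495250 was in all but UT replicate 1.

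**Figure D3:**
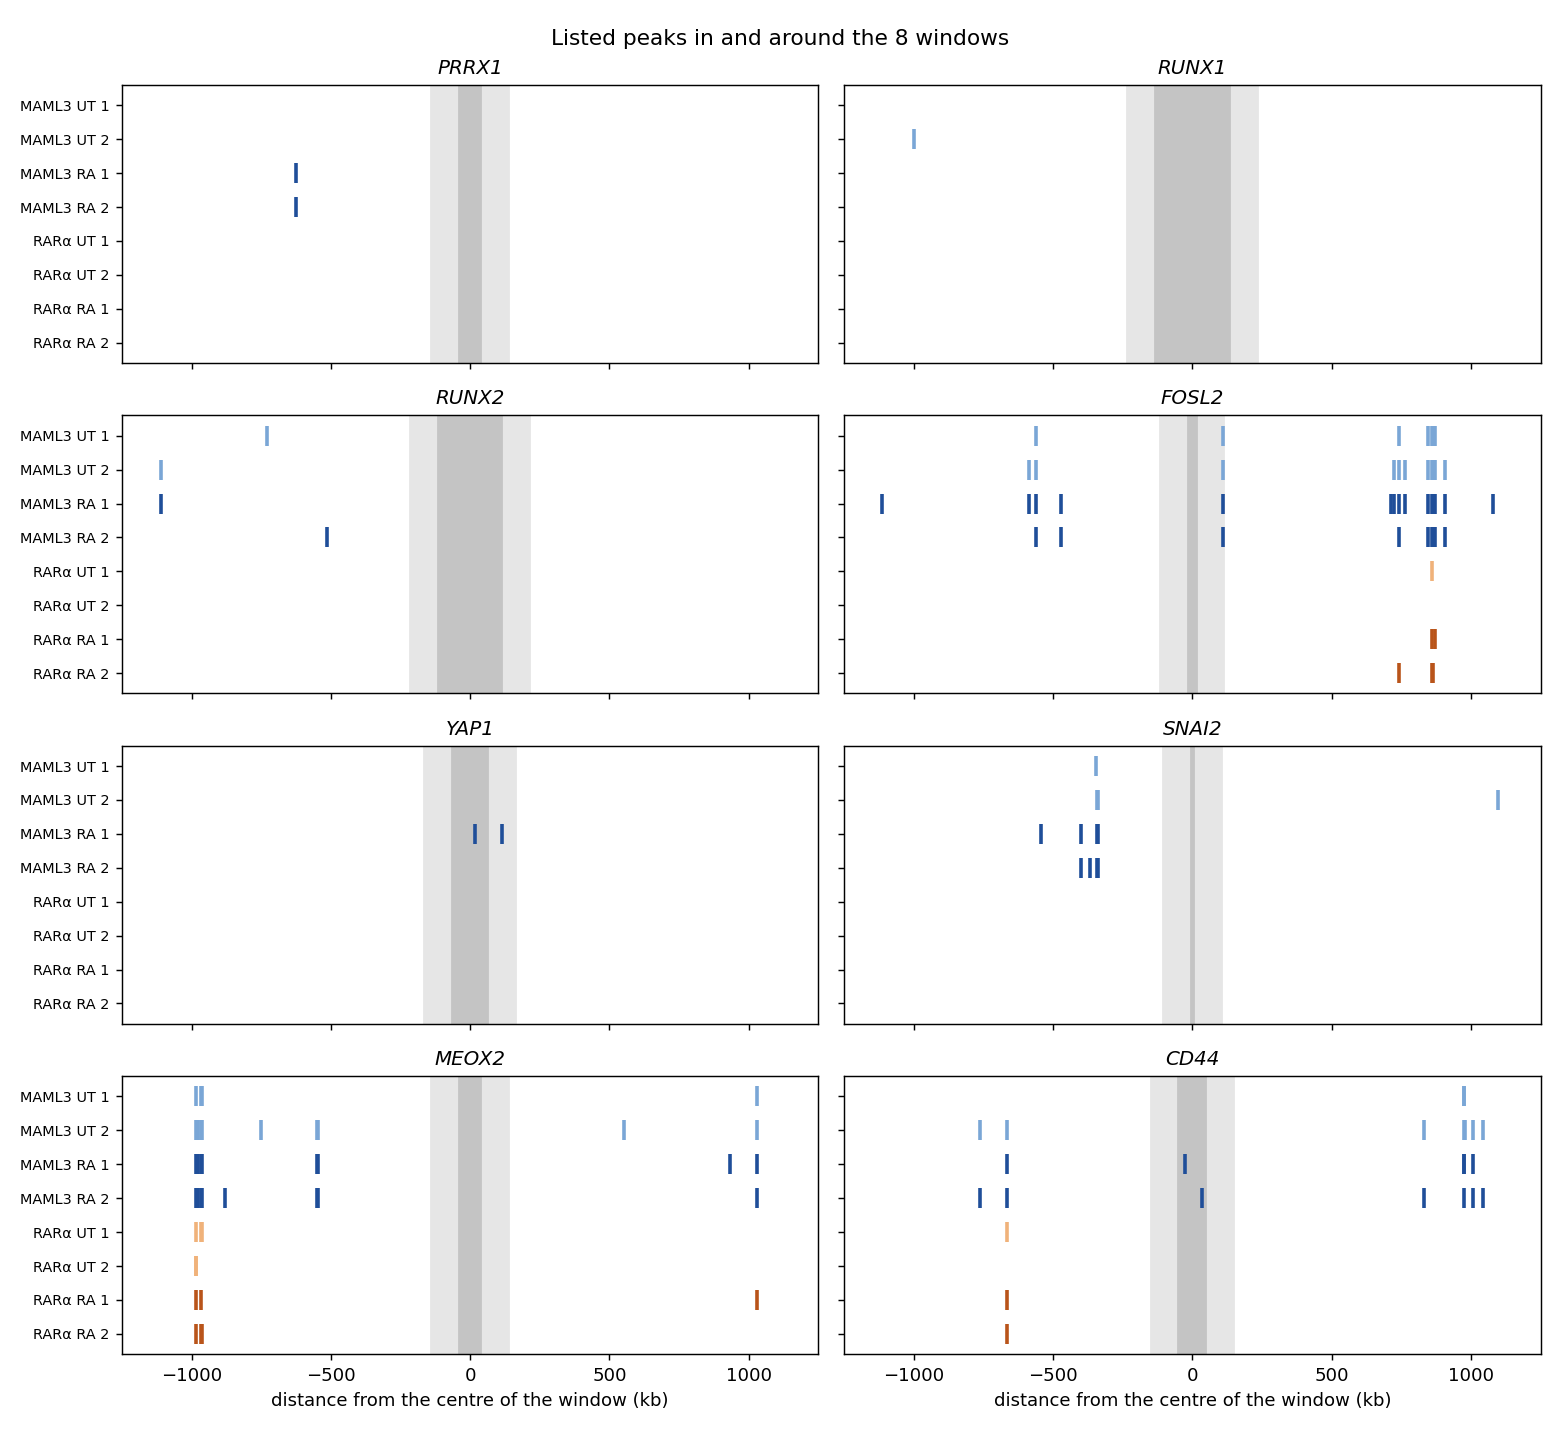
Listed peaks (ticks) around each of the 8 genes, 1 row per library, against distance from the centre of the window in kb. The light grey band is the window, the dark band the gene stretch without its 100 kb flanks. Peaks inside the bands are seen at FOSL2 in all 4 MAML3 rows, at YAP1 in MAML3 RA 1 alone and at CD44 in 1 place for each MAML3 RA library, while RARα ticks appear only outside the bands at FOSL2, MEOX2 and CD44.

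RARα was listed at 9 sites of the widened windows, near MEOX2 (4), FOSL2 (4) and CD44 (1), none of them within 500 kb of a window. UT replicates 1 and 2 had 5 and 2 RARα peaks there, and RA replicates 1 and 2 had 6 and 7. By count both RA libraries were above both untreated ones (exact two-sided permutation p = 0.333, the smallest the design allows). How often RARα counts separate in this way over equal lengths elsewhere was not computed, so the order is no result about these genes. Per 1000 listed peaks the RARα counts were 3.79 and 7.97 in untreated cells and 5.44 and 6.58 after RA, so by share the treatments overlapped. UT replicate 2, the shortest list, was highest, but its 2 peaks lay in the same site near MEOX2. Its share thus counts 1 site 2 times, and the overlap by share rests on it. All 9 sites overlapped a MAML3 site, against 84.4% of all RARα sites. Of the 9, 0 were gained or lost, against 5.42% gained and 0.472% lost over all RARα sites. The RARα site present in all 4 lists was on chromosome 7 at 14705797 to 14706519, 843 kb from the MEOX2 window on the gene's downstream side, where the MAML3 site had a mean percentile of 99.6. RARα sites at 14722597 to 14723050 and 14727451 to 14727755 followed, and each of the 3 lay on a MAML3 site present in all 4 lists. Near FOSL2 the highest ranked RARα site was on chromosome 2 at 29485535 to 29486070, 746 kb past the window (percentile 86.2). It was in UT replicate 1 and both RA lists and lay on a MAML3 site of all 4 lists (percentile 96.0). Near CD44 the one RARα site, on chromosome 11 at 34544647 to 34545034, was in the same 3 lists, 515 kb on the upstream side of the window (percentile 71.9). The nearest RARα site to the RUNX1, YAP1 and SNAI2 windows was 2.18, 2.18 and 2.62 Mb away, and to PRRX1 and RUNX2 1.34 and 1.28 Mb.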

How the data were processed

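Each library has its own peak list. BWA 0.5.9, MACS, bedtools and the hg19 build appear in the submitters' processing notes, without settings. How the inputs were used in peak calling is not stated there, and the 2 input samples were not analysed. The lists have no header. The last column of each list holds 1 number per peak, taken here as the authors' deposited score, at least about 70 throughout and used only to rank peaks within a list.

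Windows were taken as given. Peaks of an antibody's 4 lists that shared at least 1 bp were joined genome-wide, and sites touching a window were kept. The merging was tested on simulated data. Background shares come from tiling the range in which any list had peaks, gaps in the assembly included. Peak counts were compared with an exact permutation test over libraries (Python 3.11.15, scipy 1.17.1). Intervals are exact binomial (Clopper-Pearson). Gene order and strand are from RefSeq GRCh38.p14, where the strand of SNAI2 was not found. Sites given by position are those in all 4 lists, gained or lost, with RARα, or highest in their window. Further sites were named after their values were seen. Members and lists were chosen with earlier results of these data known. With no hg19 genome or annotation at hand, distances to transcript starts, motifs, peak sequences and the planned further mesenchymal genes were not analysed.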

Additional observations from a re-analysis of the deposited data

How the results depend on the processing

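Every RARα count in the windows stayed at 0 under each of the following settings (overlap of 50% of the shorter peak, peaks within 1 kb, the 50% highest peaks by score, equally long lists, windows shortened by 50 kb, each replicate left out, and sites of at least 1 replicate for the overlap with MAML3), as did the count of lost MAML3 sites. The other MAML3 counts rested on peaks in the lower 50% of their lists. With the 50% highest peaks, the windows had 0 sites, 0 in every list and a difference of 0 peaks between treatments. With lists of equal length the difference turned to -0.5 peaks, with 1 site and 0 in every list; shorter lists hold fewer low peaks. With windows shortened by 50 kb, 0 sites were in every list, since the FOSL2 site lies near the edge. Leaving out each MAML3 replicate gave 0 to 3 gained sites (1 without RA replicate 1, 3 without RA replicate 2, as 1 library then decides), 2 to 5 sites in all (2 without RA replicate 1) and a difference of 1 to 3 peaks. Widened by 500 kb, a step added after seeing the data, the windows had 18 MAML3 sites, 3 in every list, 3 gained and a difference of 7.5 peaks. Widened by 1 Mb they had 49, 13, 3 and 9.5. RARα then had 9 sites, 1 in every list, a difference of 3 peaks, and 1 (UT) and 4 (RA) sites of both replicates on a MAML3 site. These 1 and 4 were all the RARα sites that both replicates of a treatment held there. RARα UT replicate 2, the shortest list, limits the UT count. With the libraries paired by replicate number as a block, the MAML3 difference was 2 peaks (3 and 1 within the numbers; exact paired permutation p = 0.5, two-sided, the smallest that 2 pairs can give) and the RARα difference 0. No label says that the numbers pair the samples. Read depth is not known, and peaks below the lists' minimum could not be seen.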
